A study of Homo sapiens with 12 samples.

Results

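The 38 genes described here encode the core machinery of autophagosome formation and the receptors that bring cargo to it. They form a list by function, matched as gene symbols in the deposited table. All 38 had an entry among the 25733 genes of the table, and 37 reached the mean FPKM of at least 1 that was required for testing. The exception was GABARAP. By role, the tested members were 5 genes of the ULK1 complex that starts autophagy, 6 of the phosphatidylinositol 3-kinase complex, 6 of phagophore growth, 10 conjugation enzymes and ATG4 proteases, 4 of the ATG8 family, 5 cargo receptors and 1 fusion gene.

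RNA was sequenced from HCT116, an established human colorectal cancer line, so all values come from 1 cell line. The study asked how ammonia, supplied as NH4Cl, alters the response of these cells to TGF-β. There were 4 groups of 3 libraries: control cells, cells given TGF-β, cells given NH4Cl, and cells given both. The paper's methods state a dose of 10 mM NH4Cl over 24 h. Where TGF-β was given, vehicle or NH4Cl came first for 23 h, then 200 pM TGF-β for 1 h; the labels carry no doses. Nothing says that the libraries of a group came from separate cultures, so p-values measure only the spread between these libraries, which may be technical.

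Autophagy encloses cytoplasm in a growing double membrane, the phagophore, which closes into an autophagosome and fuses with the lysosome. The ULK1 complex and a lipid kinase complex start the membrane, lipid transfer proteins feed it, and a ubiquitin-like conjugation system attaches ATG8 proteins such as LC3 to it. Cargo receptors such as p62 bind ubiquitinated cargo and ATG8 proteins together and are degraded with the cargo. NH4Cl is a source of ammonia, a weak base known to collect in lysosomes and raise their pH. The values here are RNA levels, which do not measure autophagosomes or their turnover.

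Levels are FPKM, reads scaled to exon length and library size, as computed by the authors. Between 14807630 and 18191998 reads fell on genes in each library (median 15484798). The cells carried the markers of their labelled origin: 9 of 10 colon epithelial markers had a mean FPKM of at least 1, led by KRT18 at 876, and the exception was KRT20 at 0.190. Of 5 leukocyte markers, 2 were in the table used here and 0 reached 1, with CD14 at 0.608 as the most abundant. In bulk RNA, fewer cells of a kind and less RNA per cell cannot be told apart.

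Differences were tested with limma on log2(FPKM + 1), so every fold change below is on that scale, which understates the change of genes with low FPKM. Adjusted p-values are over all 12341 genes tested, with a threshold of 0.05. Replicate 3 of every group stood apart from replicates 1 and 2, in the same genes across groups, and replicates 1 and 2 were much less distinct from each other. The model was therefore fitted without and with the replicate number as a block, a term that gives each replicate number its own level. The fold changes are the same in both fits, and their standard errors are not.

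Without the block, limma called 0 of the 37 members in any of the 6 comparisons. At an unadjusted p under 0.05 in that fit there were 2 members with NH4Cl against control, 8 with both treatments against TGF-β alone, 5 with both against control, 1 with TGF-β against control, 0 with both against NH4Cl and 0 in the interaction. Over all genes the share at an unadjusted p under 0.05 in that fit was 10.8%, 13.3%, 13.1%, 0.835%, 1.34% and 0.932% in the same order, so the members' 5.41%, 21.6%, 13.5%, 2.70%, 0% and 0% are small counts on both sides of it and not a result about the members. The share of all genes called without the block, by the adjusted p, was 0.381% with NH4Cl against control, 1.03% with both against TGF-β and 0.948% with both against control.

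With the block, limma called 4 of 37 members (10.8%) with NH4Cl against control, beside 13.6% of all genes. Of these, 3 were higher and 1 was lower, where 7.42% of all genes were higher and 6.14% were lower. With both treatments against TGF-β it called 7 members (18.9%), 5 higher and 2 lower, beside 18.8% of all genes, 10.3% higher and 8.48% lower. With both against control it also called 7 (18.9%), 6 higher and 1 lower, beside 18.4% of all genes, 10.7% higher and 7.77% lower. These shares are near the background, so the counts are not a result about the members. The last comparison shares its control libraries with the first and its treated libraries with the second, whereas the first and second share no library. All came from the same fit to all libraries, so they share its estimate of spread.

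SQSTM1, MAP1LC3B, WIPI1 and ATG13 were called with the block in both comparisons that share no library, each in the same direction. That is 4 of 37 members (10.8%), beside 1223 of 12341 genes (9.91%) called in both in the same direction. They were all 4 of the members called in the first comparison and 57.1% of those called in the second. Over all genes the shares were 73.1% and 52.7%. The comparisons are not independent repeats, because the same fit to all libraries gave both tests their estimate of spread and block terms. With the block and only the libraries compared, NH4Cl against control called SQSTM1, MAP1LC3B and WIPI1 but not ATG13. Such a fit of both against TGF-β called all 4. The median log2 fold change of the members was 0.018 with NH4Cl against control and 0.049 with both against TGF-β, and the median size was 0.057 and 0.086. Over all genes the median sizes were 0.088 and 0.097.

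**Figure D1:**
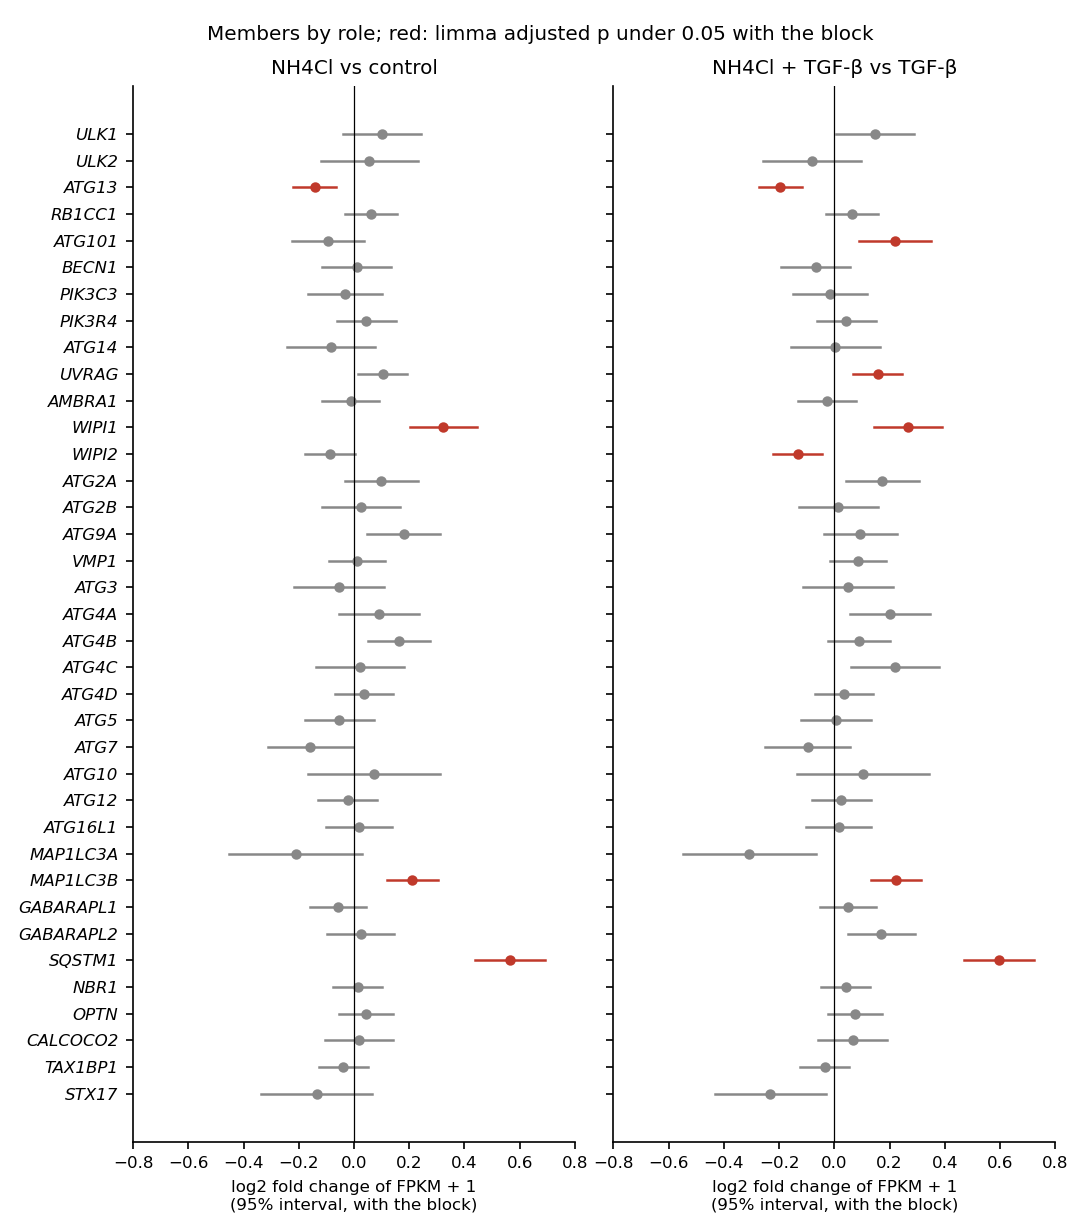
Log2 fold change of FPKM + 1 for the 37 tested members in role order, with 95% intervals from the limma fit with the block, for NH4Cl against control (left) and both treatments against TGF-β (right). Red marks an adjusted p under 0.05 in that fit, and SQSTM1 lies farthest from 0 in both panels, at 0.56 and 0.60.

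In the ULK1 complex, ATG13 (ENSG00000175224; GRCh38 chromosome 11, 46617527 to 46674818, plus strand) encodes the subunit that links ULK1 to the rest of the complex. Its FPKM was 13.4, 12.5 and 13.4 in control replicates 1 to 3 and 13.3, 12.5 and 13.7 with TGF-β, against 11.5, 11.3 and 12.4 with NH4Cl and 11.4, 10.97 and 11.7 with both. All 6 libraries with NH4Cl lay below all 6 without it, and replicate 3 was shifted upward in every group by little, 0.041 to 0.11 on the log2 scale. The means were 13.1 ± 0.471 (SD, n = 3), 13.2 ± 0.627, 11.8 ± 0.581 and 11.4 ± 0.362 in the same order of groups. ATG13 fell with the block, with a log2 fold change of -0.14 with NH4Cl (limma adjusted p = 0.0250, lower in 3 of 3 replicates) and -0.20 with both against TGF-β (limma adjusted p = 0.00478, lower in 3 of 3); without the block the adjusted p-values were 0.382 and 0.163. With NH4Cl alone the call held in 1 of 6 fits that left out a library, that without NH4Cl replicate 3 (0.0355). The same call was lost with the block when only the control and NH4Cl libraries were fitted. The limma adjusted p of ATG13 was 0.114, 0.0907 and 0.0547 without control replicate 1, 2 or 3, and 0.104 and 0.0831 without NH4Cl replicate 1 or 2.

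ATG101 (ENSG00000123395; chromosome 12, 52069246 to 52077494, plus strand), which stabilises ATG13, had an FPKM of 9.53, 8.03 and 9.49 in control cells, 7.74, 7.56 and 10.1 with TGF-β, 8.46, 7.44 and 9.24 with NH4Cl, and 9.73, 8.999 and 11.3 with both. Cells given both treatments had the highest value of each replicate number, and the groups overlapped. NH4Cl alone gave a lower value than control in each of the 3 replicates, with a log2 fold change of -0.10 that was not called (limma adjusted p = 0.321 with the block). Against TGF-β alone it rose with the block by 0.22 (limma adjusted p = 0.0280, higher in 3 of 3 replicates; 0.494 without the block). That call held in 1 of 6 fits that left out a library, without TGF-β replicate 3 (0.0130). It was lost with a block of 2 levels, replicate 3 against the others (limma adjusted p = 0.0536). The adjusted p of ATG101 was 0.116 and 0.0809 without TGF-β replicate 1 or 2, and 0.0660, 0.0840 and 0.0778 without replicate 1, 2 or 3 of cells given both.

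ULK1, the kinase of the complex, had an FPKM of 14.4, 12.4 and 31.5 in control cells, 13.9, 12.1 and 33.5 with TGF-β, 14.5, 14.8 and 32.8 with NH4Cl, and 14.4, 14.1 and 38.3 with both. Replicate 3 was above 31 in every group while the other libraries stayed below 15, so the spread inside a group exceeded any difference between groups. The log2 fold change was 0.10 with NH4Cl, with a standard error of 0.52 without the block and 0.063 with it (limma adjusted p = 0.333 with the block, higher in 3 of 3). RB1CC1, the scaffold of the complex also known as FIP200, and ULK2, a second kinase, had log2 fold changes of 0.061 and 0.056 with NH4Cl and were not called.

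In the complex that makes phosphatidylinositol 3-phosphate, UVRAG (ENSG00000198382; chromosome 11, 75815167 to 76143195, plus strand) encodes a subunit that pairs with beclin 1. Its FPKM was 5.65, 5.34 and 5.91 in control cells, 5.34, 5.33 and 5.92 with TGF-β, 6.09, 5.70 and 6.61 with NH4Cl, and 6.17, 5.92 and 6.77 with both. Within each replicate number the NH4Cl libraries were higher, although the groups overlapped in both comparisons with NH4Cl as the only difference. UVRAG rose by 0.16 with the block in cells given both against TGF-β (limma adjusted p = 0.0237, higher in 3 of 3; 0.380 without the block), and its log2 fold change with NH4Cl alone was 0.10 (limma adjusted p = 0.116 with the block, higher in 3 of 3). The first of these calls held in 0 of 6 limma fits that left out a library, with adjusted p-values of 0.0965, 0.0566 and 0.0541 without TGF-β replicate 1, 2 or 3 and 0.0600, 0.0663 and 0.0635 without replicate 1, 2 or 3 of cells given both. Against control, cells given both had UVRAG higher by 0.13 (limma adjusted p = 0.0427 with the block, higher in 3 of 3; 0.481 without it), a call that also held in 0 of 6. There the limma adjusted p was 0.0902, 0.125 and 0.144 without control replicate 1, 2 or 3 and 0.0920, 0.103 and 0.104 without replicate 1, 2 or 3 of cells given both.

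ATG14, which directs the complex to the phagophore, had an FPKM of 2.34, 2.54 and 2.64 in control cells, 2.17, 2.16 and 2.48 with TGF-β, 2.04, 2.39 and 2.52 with NH4Cl, and 2.29, 1.92 and 2.67 with both. The 4 groups overlapped, and its log2 fold change was -0.083 with NH4Cl (limma adjusted p = 0.493 with the block, lower in 3 of 3). The catalytic subunit PIK3C3, its regulatory partner PIK3R4, BECN1 and the BECN1-binding regulator AMBRA1 were not called, with log2 fold changes with NH4Cl from -0.034 in PIK3C3 to 0.045 in PIK3R4.

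Among the genes of phagophore growth, WIPI1 (ENSG00000070540; chromosome 17, 68420948 to 68457513, minus strand) encodes a protein that binds phosphatidylinositol 3-phosphate on the membrane. Its FPKM was 6.37, 5.99 and 11.1 in control cells, 6.28, 6.62 and 10.3 with TGF-β, 8.34, 8.38 and 12.9 with NH4Cl, and 7.77, 8.42 and 12.2 with both. Replicate 3 was the highest library of each group, and the control value of replicate 3 exceeded the NH4Cl values of replicates 1 and 2, so the groups overlapped; within each replicate number the NH4Cl library was higher. The means were 7.81 ± 2.83 (SD, n = 3), 7.72 ± 2.20, 9.87 ± 2.62 and 9.45 ± 2.37. WIPI1 rose with the block, by 0.32 with NH4Cl (limma adjusted p = 0.00512, higher in 3 of 3) and by 0.27 with both against TGF-β (limma adjusted p = 0.00946, higher in 3 of 3), and the adjusted p-values without the block were 0.758 and 0.748. The call held in all 6 fits with the block that left out a library, in each of these comparisons. WIPI1 shares 828 of 3402 exon bases with ARSG on the opposite strand, which was at 1.00 FPKM, so its counting is uncertain.

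WIPI2 (ENSG00000157954; chromosome 7, 5190188 to 5233826, plus strand), a relative that recruits the conjugation machinery through ATG16L1, had an FPKM of 15.5, 15.8 and 16.2 in control cells, 15.5, 16.3 and 16.9 with TGF-β, 14.5, 14.7 and 15.3 with NH4Cl, and 15.2, 13.9 and 15.0 with both. The NH4Cl libraries lay below those without it in both comparisons, opposite in direction to WIPI1. WIPI2 fell with the block in cells given both against TGF-β, at -0.13 on the log2 scale (limma adjusted p = 0.0444, lower in 3 of 3; 0.307 without the block), and had -0.087 with NH4Cl alone (limma adjusted p = 0.185 with the block, lower in 3 of 3). The call held in 1 of 6 fits that left out a library, that without replicate 1 of cells given both (0.0231). The limma adjusted p of WIPI2 was 0.0534, 0.163 and 0.114 without TGF-β replicate 1, 2 or 3, and 0.174 and 0.108 without replicate 2 or 3 of cells given both.

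ATG9A, a lipid scramblase on the vesicles that seed the phagophore, had an FPKM of 9.88, 9.32 and 11.1 in control cells, 10.03, 9.55 and 11.8 with TGF-β, 10.8, 11.6 and 12.3 with NH4Cl, and 11.3, 9.50 and 12.9 with both. Against control it was higher with NH4Cl in each replicate number, with a log2 fold change of 0.18 that was not called (limma adjusted p = 0.0740 with the block). With both against TGF-β it was higher in 2 of 3, at 0.094 (limma adjusted p = 0.305 with the block). ATG9A shares 1833 of 4724 exon bases with a readthrough gene, so its counting is uncertain. ATG2A, which moves lipids into the phagophore, had 15.5, 16.8 and 19.98 FPKM in control cells, 16.3, 15.4 and 21.8 with TGF-β, 17.7, 18.2 and 20.2 with NH4Cl, and 17.6, 19.0 and 23.999 with both. The groups overlapped, and its log2 fold change of 0.099 with NH4Cl was not called (limma adjusted p = 0.308 with the block, higher in 3 of 3). With both against TGF-β it had 0.17 and was not called (limma adjusted p = 0.0696 with the block, higher in 3 of 3), except with a mean FPKM of at least 5 and without TGF-β replicate 3 (0.23, limma adjusted p = 0.0412). Without TGF-β replicate 2 that value was 0.11 (limma adjusted p = 0.266). The value with NH4Cl ranged from 0.062 without NH4Cl replicate 1 to 0.17 without NH4Cl replicate 3 in such fits. ATG2A rose with the block in cells given both against control, by 0.20 (limma adjusted p = 0.0454, higher in 3 of 3; 0.650 without the block). That call held in 0 of 6 fits that left out a library: the limma adjusted p of ATG2A was 0.149, 0.0795 and 0.132 without control replicate 1, 2 or 3, and 0.0628, 0.123 and 0.139 without replicate 1, 2 or 3 of cells given both. Its relative ATG2B and the scramblase VMP1 had 0.025 and 0.010 with NH4Cl and were not called.

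In the conjugation system and the ATG4 proteases, which prime and recycle ATG8 proteins, limma called 0 of 10 genes with the block in either comparison with NH4Cl as the only difference, beside 13.6% and 18.8% of all genes. At an unadjusted p under 0.05 there were 2 of 10 (20%) in each, beside 29% and 33.4% of all genes. ATG4B, the main protease, had an FPKM of 11.6, 11.6 and 13.3 in control cells, 12.5, 12.7 and 14.8 with TGF-β, 13.5, 13.8 and 13.8 with NH4Cl, and 14.4, 13.4 and 14.9 with both. The NH4Cl libraries lay above all control libraries, and those given both overlapped with those given TGF-β. Its log2 fold change was 0.16 with NH4Cl (limma adjusted p = 0.0581 with the block, higher in 3 of 3). With both against TGF-β it was 0.089 and not called (limma adjusted p = 0.245 with the block, higher in 3 of 3, by 0.0021 in replicate 3). With both against control ATG4B rose by 0.21 (limma adjusted p = 0.0183 with the block, higher in 3 of 3; 0.262 without it). This call held in 3 of 6 fits that left out a library and was lost without control replicate 1 (limma adjusted p = 0.0764) or 2 (0.0759) and without replicate 1 of cells given both (0.0756). With NH4Cl alone ATG4B was called without NH4Cl replicate 3 (0.0274), with replicates 1 and 2 only, with a mean FPKM of at least 5 and with a block of 2 levels, replicate 3 against the others (0.0435).

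ATG7, the activating enzyme of the system, had an FPKM of 1.97, 2.16 and 1.96 in control cells, 1.98, 1.89 and 1.98 with TGF-β, 1.69, 1.69 and 1.76 with NH4Cl, and 1.62, 2.04 and 1.64 with both. The NH4Cl libraries were below all control libraries, whereas replicate 2 of cells given both lay above the TGF-β libraries. The log2 fold change was -0.16 with NH4Cl (limma adjusted p = 0.161 with the block, lower in 3 of 3). ATG7 shares 1596 of 8833 exon bases with VGLL4 on the opposite strand, which was at 7.61 FPKM, so its counting is uncertain. The carrier enzymes ATG3 and ATG10, the conjugate of ATG12 and ATG5 with ATG16L1, and the proteases ATG4A, ATG4C and ATG4D were not called, with log2 fold changes with NH4Cl from -0.056 in ATG3 to 0.090 in ATG4A. With both against TGF-β, ATG4A had 0.20 and ATG4C 0.22, each with groups that did not overlap and a limma adjusted p of 0.0571 with the block (higher in 3 of 3; 0.287 and 0.243 without it). Of the fits with the block that left out a library, ATG4A was called without replicate 3 of cells given both and ATG4C without TGF-β replicate 1. ATG4A was also called with a mean FPKM of at least 5, and ATG4C with the block of 2 levels (limma adjusted p = 0.0443).

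The ATG8 proteins are the ubiquitin-like tags on the autophagosome membrane. MAP1LC3B (ENSG00000140941; chromosome 16, 87383995 to 87404779, plus strand), which encodes LC3B, had an FPKM of 14.4, 14.6 and 19.8 in control cells, 14.8, 14.3 and 19.4 with TGF-β, 16.7, 17.4 and 22.97 with NH4Cl, and 18.1, 16.5 and 22.4 with both. Replicate 3 was the highest library of each group and made the groups overlap, and within each replicate number the NH4Cl library was higher. The means were 16.3 ± 3.06 (SD, n = 3), 16.2 ± 2.81, 19.0 ± 3.44 and 19.0 ± 3.06. MAP1LC3B rose with the block, by 0.21 with NH4Cl (limma adjusted p = 0.00933, higher in 3 of 3) and by 0.22 with both against TGF-β (limma adjusted p = 0.00557, higher in 3 of 3), and the adjusted p-values without the block were 0.758 and 0.661. The first call was lost without control replicate 1 (limma adjusted p = 0.0531) and without NH4Cl replicate 2 (0.0536) and held in the other 4 such fits, and the second held in all 6. The first was also lost with the block on replicates 1 and 2 only (limma adjusted p = 0.0548). A near-identical copy, MAP1LC3B2, was at 1.65 FPKM with a log2 fold change of 0.27 with NH4Cl (limma adjusted p = 0.122 with the block), so reads of the copies may be split.

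MAP1LC3A, which encodes LC3A, had an FPKM of 0.972, 1.59 and 1.11 in control cells, 1.13, 1.53 and 1.17 with TGF-β, 1.07, 0.764 and 0.903 with NH4Cl, and 0.745, 0.965 and 0.802 with both. These came from 21 to 48 reads per library, and the group with both treatments lay below the TGF-β group. Its log2 fold change was -0.21 with NH4Cl (limma adjusted p = 0.230 with the block, lower in 2 of 3) and -0.31 with both against TGF-β (limma adjusted p = 0.0746 with the block, lower in 3 of 3). MAP1LC3A just reached the level required for testing, at a mean FPKM of 1.06 over all libraries. Its group means were 1.28 for TGF-β alone and 1.22 for control, but 0.911 for NH4Cl alone and 0.837 for both treatments. MAP1LC3A was therefore kept for testing by the groups in which it was higher. GABARAPL1 had 14.4, 13.7 and 19.4 FPKM in control cells, 13.3, 12.9 and 21.2 with TGF-β, 13.2, 13.2 and 19.5 with NH4Cl, and 14.4, 13.7 and 20.54 with both. Replicate 3 was again the highest of each group, and the log2 fold change of -0.057 with NH4Cl was not called (limma adjusted p = 0.453 with the block, lower in 2 of 3). GABARAPL2 had 0.025 with NH4Cl and 0.17 with both against TGF-β, where the groups did not overlap, and neither was called (limma adjusted p = 0.0546 with the block in the second, higher in 3 of 3; 0.368 without it). It was called there with equal library sums, with a mean FPKM of at least 5, with the block of 2 levels (0.0415) and without replicate 3 of cells given both.

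GABARAP was listed at 0.182, 0.0771 and 0.298 FPKM in control cells, 0.214, 0.174 and 0.212 with TGF-β, 0.114, 0.135 and 0.305 with NH4Cl, and 0.1103, 0.144 and 0.260 with both. That is 3 to 10 reads per library, below the level required for testing. It shares 691 of 2266 exon bases with a readthrough gene on the same strand and 571 with a gene on the opposite strand, so its level in the deposited table is uncertain.

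As shares of the summed FPKM of the 4 tested ATG8 genes, MAP1LC3B held 33.3 ± 1.68% (SD, n = 3) in the control group, 33.7 ± 1.13% in cells given TGF-β, 37.4 ± 0.853% under NH4Cl and 35.9 ± 1.12% under both. The share in NH4Cl libraries, 36.4% to 38.1%, lay above that in control libraries, 31.9% to 35.2%, and the share with both, 34.7% to 37.0%, overlapped with that in TGF-β libraries, 32.6% to 34.8%. GABARAPL1 held 32.4%, 32.5%, 29.8% and 30.5% in the same order, GABARAPL2 31.7%, 31.2%, 31.0% and 32.0%, and MAP1LC3A 2.56%, 2.72%, 1.83% and 1.61%. No test was made of these shares.

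**Figure D2:**
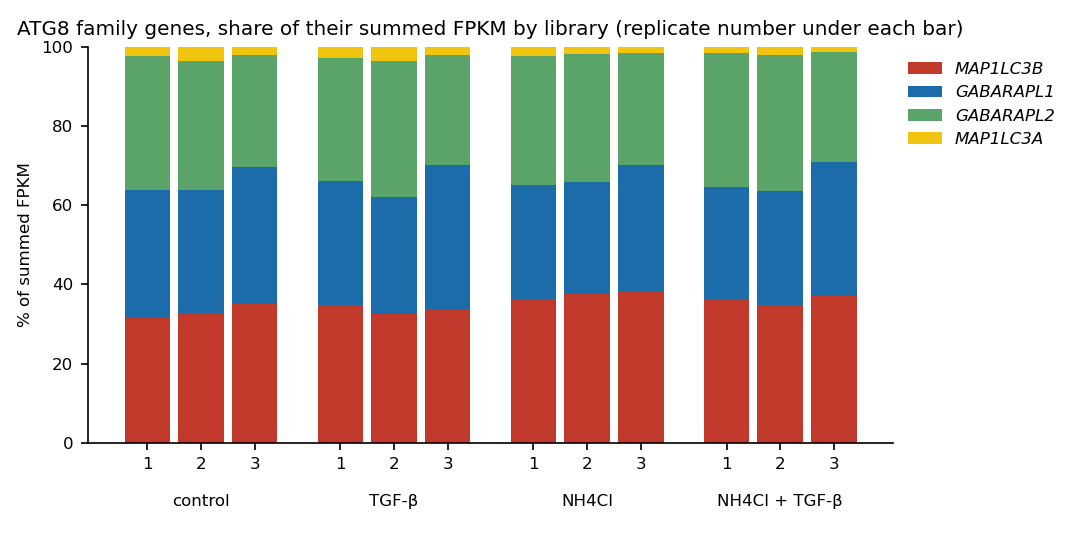
Share of the summed FPKM of 4 ATG8 genes in percent, with 1 bar per library and the replicate number under each bar. MAP1LC3B averages 33.3% in control and 37.4% in NH4Cl libraries, and MAP1LC3A holds 1.61% to 2.72% on average.

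Among the cargo receptors, SQSTM1 (ENSG00000161011; chromosome 5, 179806398 to 179838078, plus strand) encodes p62, which joins ubiquitinated cargo to LC3. Its FPKM was 25.2, 23.7 and 35.0 in control cells, 24.6, 24.6 and 35.3 with TGF-β, 38.6, 37.96 and 47.8 with NH4Cl, and 39.1, 40.8 and 48.0 with both. All 6 libraries with NH4Cl lay above all 6 without it, although replicate 3 was the highest of each group. The means were 28.0 ± 6.11 (SD, n = 3), 28.2 ± 6.21, 41.5 ± 5.54 and 42.6 ± 4.72, a ratio of 1.48 with NH4Cl against control and 1.51 with both against TGF-β. Within replicates 1, 2 and 3 the ratio was 1.53, 1.60 and 1.37 with NH4Cl alone and 1.59, 1.66 and 1.36 in the presence of TGF-β, so replicate 3 had the smallest ratio in both.

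SQSTM1 rose with the block by 0.56 with NH4Cl (standard error 0.057, limma adjusted p = 0.000468, higher in 3 of 3) and by 0.60 with both against TGF-β (limma adjusted p = 0.000300, higher in 3 of 3). In the fit lacking the block, SQSTM1 had a standard error of 0.17 and limma adjusted p-values of 0.224 and 0.163. By size of fold change it ranked 172 and 170 among the 12341 genes tested. The call with the block held in all 6 fits that left out a library in each comparison, with adjusted p-values of 0.00149 to 0.00459 and 0.000637 to 0.00278. SQSTM1 did not differ detectably between the effect of NH4Cl with and without TGF-β: the interaction was 0.032 (limma adjusted p = 0.992 with the block). It shares 1582 of 7654 exon bases with MRNIP on the opposite strand, which was at 1.58 FPKM, and 105 with MGAT4B at 59.4 FPKM. Whether strand was used in counting is not stated.

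**Figure D3:**
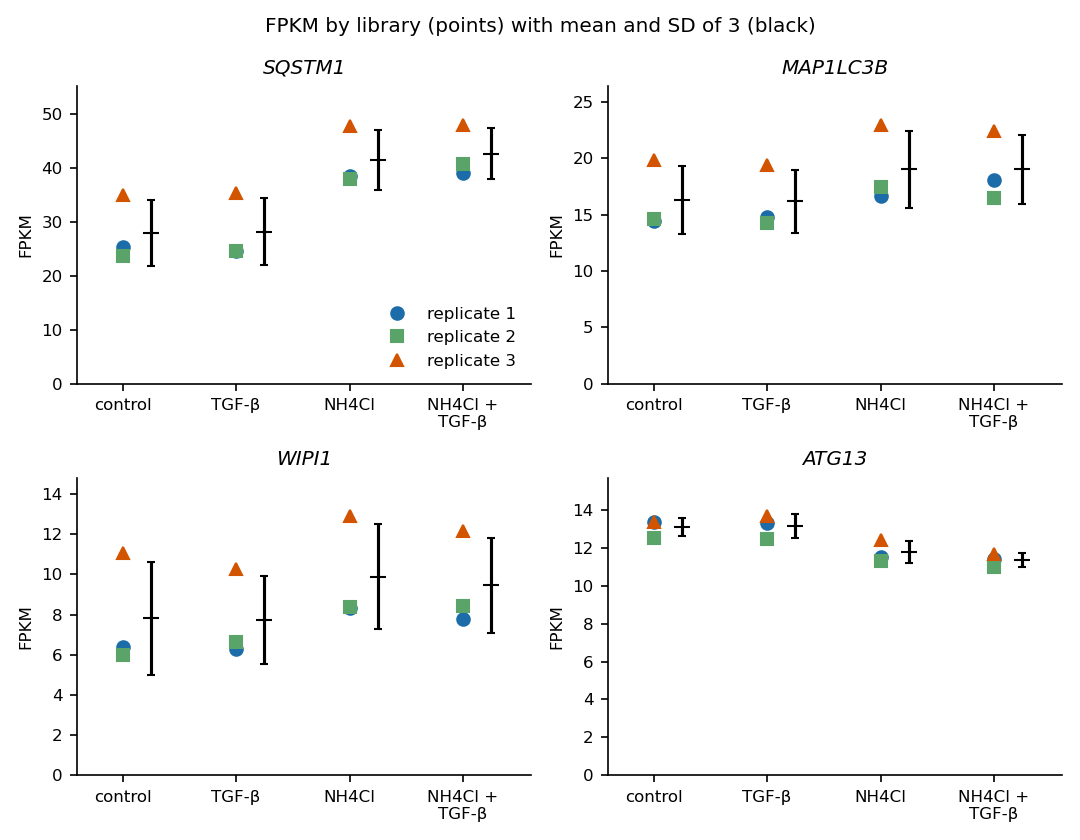
FPKM of SQSTM1, MAP1LC3B, WIPI1 and ATG13 in each library, with mean and SD of 3 libraries in black. Replicate 3 (triangles) is the highest of each group for the first 3 genes, and the groups with and without NH4Cl are apart for SQSTM1 and ATG13.

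Of the 5 cargo receptors, SQSTM1 alone was called with the block, 1 of 5 (20%) in each comparison with NH4Cl as the only difference. The shares of all genes were 13.6% and 18.8%, so this count is not a result about the receptors. OPTN, a receptor for mitochondria and bacteria, had an FPKM of 24.1, 23.01 and 33.1 in control cells, 24.4, 23.8 and 30.2 with TGF-β, 24.4, 25.2 and 32.7 with NH4Cl, and 25.4, 23.6 and 34.2 with both. TAX1BP1, a ubiquitin-binding receptor, had 18.5, 18.2 and 24.5 in control cells, 18.4, 18.04 and 24.2 with TGF-β, 17.1, 18.2 and 24.4 with NH4Cl, and 18.2, 18.1 and 22.6 with both. In both genes replicate 3 stood above the rest and the groups overlapped. The log2 fold changes with NH4Cl were 0.042 in OPTN (limma adjusted p = 0.577 with the block, higher in 2 of 3) and -0.039 in TAX1BP1 (limma adjusted p = 0.565 with the block, lower in 3 of 3). NBR1, which like p62 binds ubiquitin and LC3, and CALCOCO2, known as NDP52, had 0.013 and 0.018 and were not called. The 95% intervals of the 33 members not called with NH4Cl, in the fit with the block, reached from -0.45 in MAP1LC3A to 0.31 in ATG9A, and those of the 30 not called with both against TGF-β from -0.55 in MAP1LC3A to 0.38 in ATG4C.

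STX17, the syntaxin of the autophagosome that fuses it with the lysosome, had an FPKM of 3.68, 3.97 and 4.19 in control cells, 4.51, 4.17 and 3.41 with TGF-β, 3.58, 3.18 and 3.75 with NH4Cl, and 3.04, 3.37 and 3.39 with both. It was lower in each replicate number with NH4Cl, by a log2 fold change of -0.14 against control and -0.23 with both against TGF-β. Neither was called (limma adjusted p = 0.361 and 0.103 with the block, lower in 3 of 3 replicates). In the second comparison the differences in replicates 1, 2 and 3 were -0.44, -0.24 and -0.0060, and STX17 was called there with the block without TGF-β replicate 3, and with replicates 1 and 2 only in either fit.

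Groups did not overlap in 5 of 37 members (13.5%) with NH4Cl against control, beside 17.5% of all genes and 13.6% of genes called with the block: ATG13, WIPI2 and ATG7 lay lower and ATG4B and SQSTM1 higher. With both against TGF-β it was 8 members (21.6%), beside 16.3% of all genes and 18.8% called with the block, and with both against control also 8 (21.6%), beside 16.6% and 18.4%. The members' shares are near those of all genes and are not a result about the members.

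The comparisons for TGF-β cover 1 h of treatment. With the block, limma called 0 of 37 members with TGF-β against control and 0 with both treatments against NH4Cl, where 1 gene of 12341 (0.0081%) was called in each comparison, and at an unadjusted p under 0.05 there were 2 members (5.41%) and 1 member (2.70%), beside 3.42% and 7.12% of all genes. The gene was ID1 both times, a TGF-β family target named here after its values were seen, with log2 fold changes of 0.65 (limma adjusted p = 0.0248 with the block, higher in 3 of 3; 1 without it) and 0.62 (limma adjusted p = 0.0342 with the block, higher in 3 of 3; 1.00 without it). With a block of 2 levels, replicate 3 against replicates 1 and 2, limma called 0 genes in either comparison. The member with the largest size of fold change with TGF-β was ATG4C, at -0.22, whose FPKM was 3.25, 3.82 and 3.58 in control cells and 3.22, 2.84 and 2.65 with TGF-β (limma adjusted p = 1.00 with the block, lower in 3 of 3). In the interaction limma called 0 of 37 members, with 1 (2.70%) at an unadjusted p under 0.05 with the block, beside 4.35% of all genes.

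By level, SQSTM1 was the highest member with a mean FPKM of 35.1 over all libraries, followed by OPTN at 27.0, ULK1 at 20.545 and TAX1BP1 at 20.03. The place of ULK1 came from replicate 3: by replicates 1 and 2 alone its mean was 13.8, which ranked 9, and TAX1BP1 ranked 3 at 18.1. The ranges over libraries of neighbours in this order overlapped, such as 23.7 to 48.0 in SQSTM1 and 23.01 to 34.2 in OPTN. A mean of at least 10 was reached by 16 members and of at least 5 by 27. The lowest tested members were ULK2 at 1.39, ATG10 at 1.19 and MAP1LC3A at 1.06.

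The shift of replicate 3 covered most of the members. Against the mean of replicates 1 and 2 on the log2 scale, replicate 3 deviated to the same side in all 4 groups in 28 of 37 members (75.7%), 24 higher and 4 lower, beside 7843 of 12341 genes (63.6%), 3873 higher and 3970 lower. The median size of the shift was 0.15 in the members and 0.16 in all genes. ULK1 had the largest shift, at 1.18 for control, 1.31 for TGF-β, 1.11 for NH4Cl and 1.37 for both treatments. WIPI1 had 0.75, 0.60, 0.57 and 0.53, GABARAPL1 0.44, 0.65, 0.53 and 0.51, and SQSTM1 0.50, 0.51, 0.31 and 0.26. PIK3R4 lay on the other side, with replicate 3 lower in every group, at -0.33, -0.42, -0.36 and -0.28. What replicate 3 shares was not tested.

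**Figure D4:**
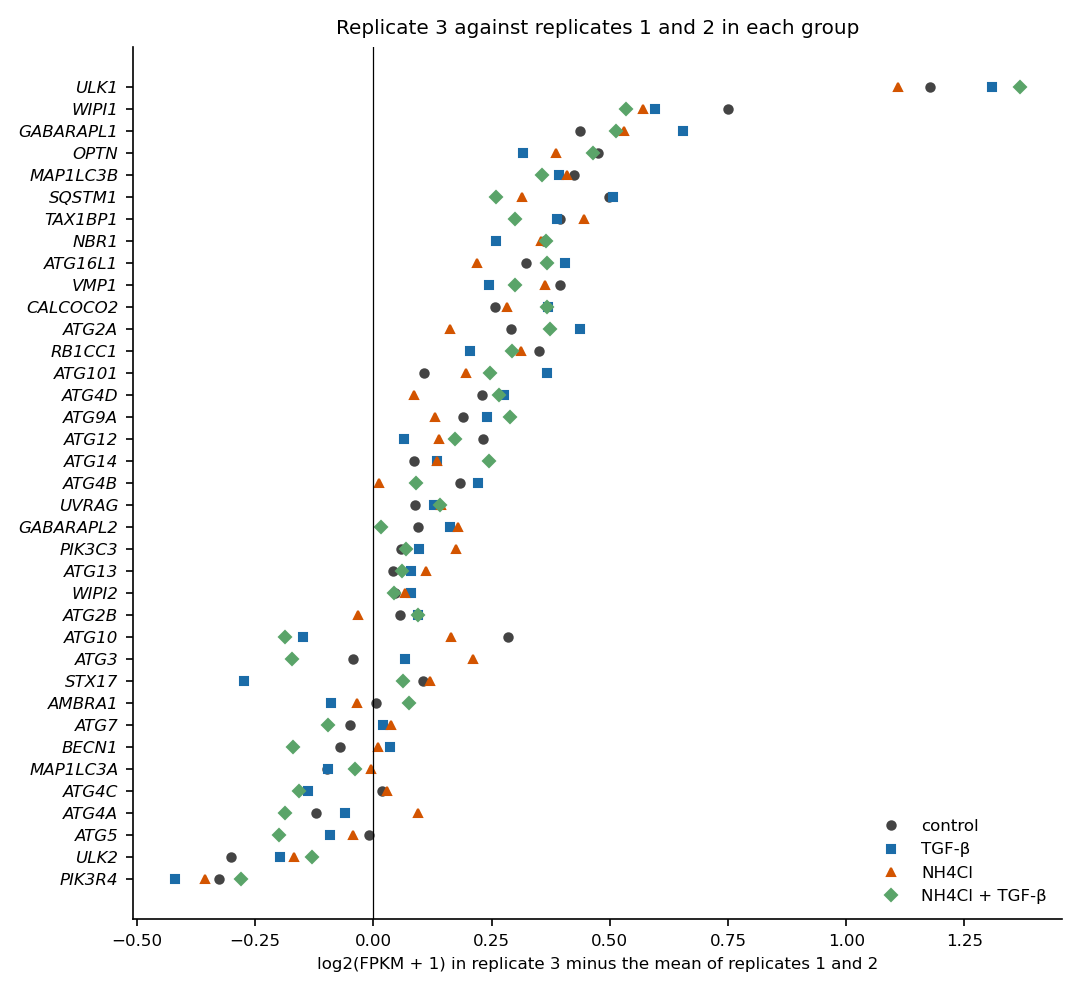
Log2(FPKM + 1) in replicate 3 minus the mean of replicates 1 and 2, by group, for the 37 tested members. ULK1 lies at 1.11 to 1.37 and WIPI1 at 0.53 to 0.75 in all 4 groups.

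Other genes of the pathway were described from lists by function. The counts below are to be read beside the shares of all genes called with the block, 13.6% with NH4Cl against control and 18.8% with both against TGF-β, and being small they are not a result about the lists. Of 19 tested genes of the upstream kinases and mTORC1, 1 (5.26%) was lower with NH4Cl and 4 (21.1%) were higher with both against TGF-β in the fit with the block. The first was STK11, which encodes LKB1, at -0.19 (limma adjusted p = 0.0312, lower in 3 of 3; 0.578 without the block), with -0.0090 in the second comparison. The others were the mTORC1 inhibitor DDIT4 at 0.40, the mTOR-binding DEPTOR at 0.33, the mTORC1 activator RHEB at 0.22 and the mTORC1 subunit AKT1S1 at 0.15, each higher in 3 of 3 (limma adjusted p in the fit with the block 0.0181, 0.0232, 0.00448 and 0.0214; in the fit that lacks it, 0.911, 0.0919, 0.0710 and 0.184), and none of these 4 was called with NH4Cl alone. DEPTOR had 32 to 60 reads per library and just reached the level required for testing, at a mean FPKM of 1.05 over all libraries. Its group means were 1.36 for both treatments and 1.11 for NH4Cl alone, but 0.884 for TGF-β alone and 0.825 for control. DEPTOR was therefore kept for testing by the groups in which it was higher. Of the 6 fits with the block that left out a library, the call held in all 6 for RHEB, in 3 for DDIT4, in 2 each for DEPTOR and AKT1S1, and in 0 for STK11. In these fits the limma adjusted p reached 0.0264 for RHEB, 0.0722 for DDIT4 without replicate 2 of cells given both, 0.0883 for DEPTOR without the same library, 0.0824 for AKT1S1 without TGF-β replicate 1 and 0.115 for STK11 without NH4Cl replicate 1. The median log2 fold change of the list was 0.083 and 0.050, and without the block 0 were called, with 2 and 4 at an unadjusted p under 0.05 in limma, beside 10.8% and 13.3% of all genes.

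Of 15 accessory factors of the autophagosome, 2 were higher with NH4Cl, and with both against TGF-β 2 were higher and 1 lower, with medians of 0.031 and 0.059. TMEM41B, a scramblase that works with VMP1, had an FPKM of 10.6, 11.2 and 18.1 in control cells, 11.7, 11.4 and 17.2 with TGF-β, 14.9, 13.4 and 19.5 with NH4Cl, and 15.1, 13.3 and 21.1 with both. Replicate 3 was the highest and made the groups overlap. TMEM41B rose with the block by 0.27 in each comparison (limma adjusted p = 0.0182 and 0.0129, higher in 3 of 3; 0.792 and 0.708 without the block). The first call was lost in 4 of 6 fits that left out a library: without control replicate 1 (limma adjusted p = 0.0710) or 2 (0.0554) and without NH4Cl replicate 1 (0.0805) or 2 (0.0696). The second was lost in 2 of 6, without replicate 1 of TGF-β (0.0521) or of both treatments (0.0580).

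TP53INP2, which binds ATG8 proteins and promotes autophagosome formation, had an FPKM of 11.02, 10.4 and 15.1 in control cells, 11.3, 10.5 and 14.5 with TGF-β, 12.9, 13.5 and 17.9 with NH4Cl, and 12.2, 11.99 and 17.8 with both. Its values followed the same order, higher with NH4Cl in each replicate number with overlapping groups. TP53INP2 rose with the block by 0.27 and 0.19 (limma adjusted p = 0.00459 and 0.0178, higher in 3 of 3; 0.718 and 0.767 without the block). The second call was lost without TGF-β replicate 2 (limma adjusted p = 0.0655) or 3 (0.0618) and without replicate 3 of both treatments (0.0632). The gene lower with both against TGF-β was FYCO1, an LC3-binding motor adaptor, at -0.19 (limma adjusted p = 0.0368 with the block, lower in 3 of 3; 0.388 without it). The call of FYCO1 held in 0 of 6 fits that left out a library, with a limma adjusted p of 0.0553 without TGF-β replicate 2 to 0.137 without replicate 1 of cells given both.

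Among 16 genes of tethering and fusion with the lysosome, 1 was lower with NH4Cl and 2 were lower with both against TGF-β, with medians of 0.027 and -0.010. YKT6, a SNARE of the autophagosome, had an FPKM of 64.5, 61.8 and 54.2 in control cells, 63.5, 62.7 and 55.9 with TGF-β, 55.7, 56.3 and 51.4 with NH4Cl, and 57.9, 57.1 and 51.2 with both. Here replicate 3 was the lowest of each group, and the NH4Cl library was lower within each replicate number. YKT6 fell with the block, with -0.14 and -0.13 (limma adjusted p = 0.0181 and 0.0192, lower in 3 of 3; 0.618 and 0.572 without the block). The calls of YKT6 held only in the fits that left out a replicate 3 library, and the limma adjusted p without a replicate 1 or 2 library was 0.0682 to 0.0956 in the first comparison and 0.0541 to 0.0691 in the second. The other gene lower in the second was VPS41, a subunit of the HOPS tether, at -0.25 (limma adjusted p = 0.00563 with the block, lower in 3 of 3; 0.368 without it), which held in all 6 fits that left out a library.

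Of 13 further cargo receptors, 1 was lower with NH4Cl, the mitochondrial receptor PHB2 at -0.12 (limma adjusted p = 0.0206 with the block, lower in 3 of 3; 0.321 without it), and 0 were called with both against TGF-β, where 2 had an unadjusted p under 0.05 in limma with the block, beside 33.4% of all genes. The call of PHB2 held in 1 of 6 fits that left out a library, without NH4Cl replicate 3 (0.0344), and the highest limma adjusted p was 0.0986 without NH4Cl replicate 2. The medians were 0.025 and -0.0093. Of the TFEB family, transcription factors of lysosome and autophagy genes, TFEB and TFE3 were tested. TFE3 fell with the block in cells given both against TGF-β, with -0.18 (limma adjusted p = 0.0138, lower in 3 of 3; 0.427 without the block), and had -0.075 with NH4Cl. The call of TFE3 was lost in 3 of 6 fits: without TGF-β replicate 1 (limma adjusted p = 0.0565) and without replicate 1 (0.0554) or 2 (0.0582) of cells given both. TFEB had -0.00075 and -0.065 in the 2 comparisons and was not called. Of the further ATG8 paralogs 1 was tested, MAP1LC3B2, and it was not called.

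Some markers of cell type moved with NH4Cl as well. KRT19, an epithelial keratin, had an FPKM of 563, 537 and 764 in control cells, 549, 541 and 783 with TGF-β, 422, 422 and 570 with NH4Cl, and 461, 445 and 614 with both. It fell with the block, with -0.39 and -0.29 (limma adjusted p = 0.000131 and 0.000518, lower in 3 of 3; 0.522 and 0.603 without the block), in all 6 fits that left out a library in each comparison. Replicate 3 was the highest of each group, and the NH4Cl library was lower within each replicate number. Of the 9 tested colon epithelial markers, 1 was higher and 1 lower with NH4Cl and 1 higher and 2 lower with both against TGF-β. Beside KRT19 these were VIL1 at 0.18 with NH4Cl (limma adjusted p = 0.0382 with the block, higher in 3 of 3; 0.296 without it), and with both against TGF-β EPCAM at 0.19 (limma adjusted p = 0.0108, higher in 3 of 3; 0.146 without it) and CDH1 at -0.19 (limma adjusted p = 0.0254, lower in 3 of 3; 0.678 without it). Of 6 fits that left out a library the call held in all 6 for EPCAM, in 1 for VIL1, without NH4Cl replicate 3 (0.0364), and in 2 for CDH1, without replicate 2 of TGF-β (0.0165) or of both (0.0448). The limma adjusted p reached 0.157 for VIL1 without NH4Cl replicate 2 and 0.102 for CDH1 without TGF-β replicate 1. The summed FPKM of the list was 2529.5, 2419.5 and 3328.9 in control cells and 2509.9, 2437.3 and 3430.2 with TGF-β. It was 2286.7, 2311.7 and 2909.4 with NH4Cl, and 2498.5, 2380 and 3027.6 with both. Within each replicate number the sum was lower with NH4Cl in both comparisons, and no test was made of it. Abundant keratins weigh most in it, such as KRT19 and KRT18, the latter at a mean FPKM of 876. The sum therefore does not show a general fall of these markers. The log2 fold changes of the tested markers ranged from -0.39 to 0.18 with NH4Cl and from -0.29 to 0.21 with both against TGF-β. Of 3 endothelial markers 1 was tested, VWF, whose FPKM was 1.54, 1.66 and 3.90 in control cells, 1.60, 1.27 and 3.98 with TGF-β, 2.47, 2.75 and 5.67 with NH4Cl, and 2.44, 2.42 and 6.44 with both. VWF shows the same arrangement as WIPI1, with replicate 3 highest and NH4Cl higher within each number, and rose with the block by 0.46 and 0.52 (limma adjusted p = 0.00423 and 0.00181, higher in 3 of 3; 0.799 and 0.675 without the block).

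The summed FPKM of the 3 endothelial markers was 1.72, 1.93 and 4.17 in control cells, 1.88, 1.56 and 4.35 with TGF-β, 2.70, 2.99 and 5.85 with NH4Cl, and 2.66, 2.81 and 6.84 with both. Nearly all of it was VWF, since PECAM1 and CDH5 had mean FPKM of 0.0348 and 0.240. Of 4 fibroblast markers 1 was tested, COL1A1 at 1.68, which was not called, and their sum was 1.29 to 2.97. The part of these markers in the values of the members was not tested.

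Promoters were searched for 3 motifs on both strands in the 250 bases before each start, in RefSeq sequences of GRCh38.p14: CACGTG, the core of the element bound by TFEB and its relatives, TGACNNNGC, the core of the antioxidant element, and TGATGNAA, an element bound by ATF4 and its partners. A total of 33 members had an entry, with 41 windows. In 33 of the 41 the bases after the start were found in a GENCODE 29 transcript of the gene, and in the rest they were not. CACGTG was in 2 windows (4.88%), of ATG3 and ATG14, beside 6.34% of the 35116 windows of all genes. TGACNNNGC was in 3 windows (7.32%), of ATG101, MAP1LC3B and CALCOCO2, beside 10.9% of all windows, and TGATGNAA was in 0 windows, beside 3.14%. Of the members called with the block in both comparisons, MAP1LC3B held a motif, 46 bases before its start. The match is printed because that gene rose in both comparisons, with the motif in capitals and 10 bases on each side, from chr16:87392280-87392308 on the plus strand; the annotation places the whole window in an untranslated exon of a longer transcript, so no more of it is shown.
MAP1LC3B: gcgagtcaccTGACCAGGCtgcgggctga
A match is a description of these letters and not a bound site, and a window without one says only that the letters are not in it.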

How the data were processed

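RNA sequencing values of 12 HCT116 libraries were used, grouped and numbered from the labels. The authors deposited FPKM per gene. The paper names HTSeq for counting, whereas the submitters' processing notes list Trimmomatic 0.36, STAR 2.5.2b, featureCounts, Subread 1.5.2, DESeq2 and GRCh38 with no role or order; the paper names the PureLink RNA Mini Kit and the labels RNeasy Plus Mini. FPKM times exon length in GENCODE 29 gave whole reads for 100.0% of values (tolerance 0.1), and their sum gave the depth.

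The filter was a mean FPKM of at least 1, and log2(FPKM + 1) went into limma 3.58.1 (R 4.3.3): 4 group means, an intensity trend, two-sided, Benjamini-Hochberg over all genes tested. Python 3.11.15 with numpy 2.4.6, pandas 2.3.3 and matplotlib 3.10.9 did the rest. The fits were also tested on simulated data, after they were first run. No value from that test is given, and no result here rests on it. Deviations from the group means correlated between libraries of the same replicate number at 0.349 to 0.774 in all 18 pairs, and at -0.655 to 0.486 in 36 pairs of different numbers. Replicate 3 with 3 gave 0.702 to 0.774 and replicate 3 with 1 or 2 gave -0.655 to -0.464, 1 with 2 gave 0.341 to 0.486, 1 with 1 gave 0.349 to 0.431 and 2 with 2 gave 0.446 to 0.533. The pairing comes from these correlations over genes, which set replicate 3 apart and separate 1 from 2 little; neither labels nor paper say what a number stands for.

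Members and lists were chosen with earlier results of these data known. Full values are given for members called with the block in both comparisons that share no library and, from the rest, the 2 with the largest change with NH4Cl in each role; members called in 1 comparison were added after their values were seen. From each list up to 3 genes called in both were named, and the other list genes named were those behind small counts, chosen after their values were seen. Alternatives were a pseudocount of 0.1, no filter, a mean FPKM of at least 5, equal library sums, centring on the median, only the groups compared, no intensity trend, the block, and each library left out in turn. Replicates 1 and 2 alone, without and with the block, and a block of 2 levels, were added after seeing the data.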

Additional observations from a re-analysis of the deposited data

Results flagged for a closer look

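The log2 fold change of ATG101 with NH4Cl had opposite signs without and with TGF-β. The gene was lower than control in 3 of 3 replicates with NH4Cl and higher than TGF-β alone in 3 of 3 with both treatments. The first effect, -0.10, was not called (limma adjusted p = 0.321 with the block), and with the block it was -0.037 without control replicate 1 and -0.15 without control replicate 3. The second effect, 0.22, was called with the block, but in only 1 of 6 fits that left out a library and not with a block of 2 levels. The difference between these effects, the interaction on the log2 scale, was 0.32 (0.3154). It did not pass the threshold: limma gave an unadjusted p of 0.0967 without the block and 0.00350 with it, and adjusted p-values of 1 and 0.992. ATG101 shares 614 of 3199 exon bases with a gene on the opposite strand. No explanation was tested.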

How the results depend on the processing

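Counts of members called depended on the replicate block. Without it limma called 0 in each comparison, and with the replicate block 4 with NH4Cl against control, 7 with both against TGF-β and 7 with both against control. With replicates 1 and 2 of every group only and no block, an alternative chosen after seeing the data, the counts were 4, 5 and 5, beside 10.5%, 14.1% and 13.2% of all genes. Against the fit with the block and all libraries, that alternative lost ATG13 and gained ATG4B in the first comparison, lost ATG101, UVRAG and WIPI2 and gained STX17 in the second, and lost UVRAG and ATG2A in the third. The same libraries with the block gave 3, 6 and 5, beside 9.29%, 13.4% and 13% of all genes. There MAP1LC3B was not called in the first comparison either, and ATG101 was called in the second. The block changed no call of a member in the other 3 comparisons. A block of 2 levels, replicate 3 against replicates 1 and 2, also chosen after seeing the data, gave 5, 8 and 7, beside 14.5%, 19.5% and 19.2% of all genes. SQSTM1, WIPI1, MAP1LC3B and ATG13 were called with it in each of these 3 comparisons, and ATG101 was not called with both against TGF-β (limma adjusted p = 0.0536, log2 fold change 0.22, higher in 3 of 3). It gained ATG4B with NH4Cl against control (0.0435), and ATG4C (0.0443) and GABARAPL2 (0.0415) with both against TGF-β. With the block, the fit on only the libraries compared called 4 with both against TGF-β, beside 9.12% of all genes in that fit and 18.8% with all libraries. Fits of that kind lost ATG13 with NH4Cl against control, and WIPI1 and UVRAG with both against control. The other alternatives, apart from fits that left out 1 library, stayed within 1.5 times the count with all libraries.

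Leaving out 1 library in the fit with the block gave 2 to 5 members with NH4Cl against control, 4 to 7 with both against TGF-β and 4 to 6 with both against control. There were 2 without control replicate 1 or NH4Cl replicate 2 in the first, 4 without replicate 2 of TGF-β or of both in the second, and 4 without control replicate 1 or 2 in the third. The share of all genes called was lower in these fits too, at 5.71% to 11.3%, 10.1% to 14.6% and 9.47% to 13.9%, so the lower counts are not a result about the members. SQSTM1 and WIPI1 were called in all 6 fits of the first comparison, and SQSTM1, WIPI1, MAP1LC3B and ATG13 in all 6 of the second. Without the block, 0 members were called in any fit that left out 1 library.

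Of 1238 alternatives of single-gene values without the block, 1149 kept their sign and 89 did not, and 0 of the 89 were in a member called with the block in that comparison. With the block, alternatives were run for the members called in a comparison and the list genes called in both, 28 results, and all 390 kept their sign. For the other members the sign was not tabulated in that fit. Centred on the median, log2 fold changes with NH4Cl were -0.0049 in BECN1, -0.0016 in NBR1 and -0.0042 in VMP1, and with both against TGF-β -0.0042 in ATG14 and -0.0018 in ATG5. With replicates 1 and 2 only they were -0.017 in BECN1, 0.00080 in AMBRA1, 0.0086 in ATG12 and -0.0036 in GABARAPL2 with NH4Cl, and 0.0014 in BECN1, -0.0028 in PIK3R4, -0.033 in ATG14 and -0.011 in ATG12 with both against TGF-β. The cause of these sign changes was not tested.

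Omitting 1 library from the fit that has no block leaves the groups compared with unequal sets of replicate numbers, and the log2 fold change of members not called changed sign in 38 results. Members called with the block kept their sign there but moved: with NH4Cl against control WIPI1 had 0.13 to 0.57, MAP1LC3B 0.075 to 0.35, SQSTM1 0.46 to 0.73 and ATG13 -0.18 to -0.12, and with both against TGF-β WIPI1 had 0.089 to 0.47, MAP1LC3B 0.10 to 0.35, SQSTM1 0.51 to 0.76 and ATG13 -0.23 to -0.17. In the latter comparison ATG101 had 0.14 to 0.34, UVRAG 0.11 to 0.20 and WIPI2 -0.16 to -0.097. With NH4Cl against control the ranges over libraries left out were -0.27 to 0.49 in ULK1, -0.044 to 0.14 in ULK2, -0.043 to 0.18 in RB1CC1, -0.014 to 0.031 in BECN1, -0.092 to 0.018 in PIK3C3, -0.064 to 0.16 in PIK3R4 and -0.028 to 0.0011 in AMBRA1. Further ranges were -0.012 to 0.044 in ATG2B, -0.027 to 0.064 in ATG4C, -0.017 to 0.11 in ATG4D, -0.0082 to 0.17 in ATG10, -0.082 to 0.055 in ATG12, -0.054 to 0.13 in ATG16L1 and -0.23 to 0.088 in GABARAPL1. Further ranges were -0.035 to 0.058 in GABARAPL2, -0.10 to 0.13 in NBR1, -0.086 to 0.20 in OPTN, -0.076 to 0.10 in CALCOCO2, -0.19 to 0.093 in TAX1BP1 and -0.11 to 0.14 in VMP1. With both against TGF-β the ranges over libraries left out were -0.31 to 0.58 in ULK1, -0.034 to 0.13 in RB1CC1, -0.039 to 0.016 in PIK3C3, -0.096 to 0.14 in PIK3R4, -0.078 to 0.088 in ATG14, -0.016 to 0.051 in ATG2B and -0.0026 to 0.20 in ATG9A. Further ranges were -0.00051 to 0.11 in ATG3, -0.054 to 0.13 in ATG4D, -0.035 to 0.073 in ATG5, -0.033 to 0.058 in ATG12, -0.11 to 0.15 in ATG16L1, -0.12 to 0.27 in GABARAPL1 and -0.080 to 0.13 in NBR1. Further ranges were -0.080 to 0.18 in OPTN, -0.056 to 0.19 in CALCOCO2, -0.13 to 0.095 in TAX1BP1 and -0.014 to 0.17 in VMP1.

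Groups of 3 limit what can be called: with the block the 95% intervals of members not called reached -0.45 and 0.31 with NH4Cl. Few reads were counted for GABARAP, 3 to 10 per library, and for MAP1LC3A, 21 to 48, and the reason was not tested. Genes that overlap on opposite strands have uncertain values, because no source says whether strand was used in counting. The libraries come from 1 cell line and 1 time of TGF-β treatment, and RNA levels alone were measured.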
